A study of Rattus norvegicus with 18 samples.

Results

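Lung RNA of male Sprague-Dawley rats taken 6 h after the last smoke or sham session was compared with lung RNA taken 2 h after it. The arrays were chosen by title, 6 labelled 6 h and 6 labelled 2 h, 12 of the 18 arrays of the series. Each time had 1 array of sham rats and 1 each of rats given smoke at 300 and 600 µg/l, a concentration of total particulate matter (TPM). This held on both Affymetrix array types, A and B, so each of the 2 types gave 3 arrays against 3, matched by exposure. Treatment, sham included, had lasted 13 weeks with 5 sessions of 2 h in each week, nose-only, with mainstream smoke of the 2R4F reference cigarette in the smoke groups. The sham course over recovery is 1 array against 1 per type, the smoke course 2 against 2.

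The labels give neither the number of animals behind an array nor the clock time of dissection, so hours since the session and time of day cannot be told apart. No condition had a replicate array, and p-values reflect nothing but the spread among these arrays. All values are MAS5 signals scaled by the depositors, with a trimmed mean of 500.09 to 500.10 on every array, and all differences are in log2(signal + 50). The lung identity was carried by very bright Sftpc, the surfactant protein C gene of alveolar type 2 cells (15855 to 18566 on the 6 type A arrays), and Scgb1a1, the club cell secretoglobin gene (13321 to 15904).

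A pair of type B arrays with different labels deviated together. Deviations were taken from each probe set's mean over the 9 arrays of a type, with no effect of exposure or time removed. On type B, those of the sham array at 2 h correlated with those of the 300 µg/l array at 2 h (Pearson r = 0.561 across probe sets). The other 35 pairs of type B arrays reached at most 0.119, and the type A arrays of the same labels had -0.165. The median absolute difference between these 2 type B arrays was 0.090, and that between the sham and 600 µg/l arrays at 2 h was 0.182. The likeness does not show which of the 2 departs from its label. Tests on type B are therefore also given without this sham array, called the doubtful array below, and for the counts without both. Every sham difference on type B rests on the first and every 300 µg/l difference on type B on the second.

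Recovery from a smoke session is followed here through 2 sets of genes whose regulation is well known. The aryl hydrocarbon receptor (AhR) is a ligand-activated transcription factor that binds combustion products such as polycyclic aromatic hydrocarbons, induces cytochrome P450 genes that metabolise them, and induces its own repressor Ahrr, so that induction is transient. The circadian clock is a loop in which BMAL1 with CLOCK or NPAS2 drives the Per, Cry and Nr1d genes, whose products repress it, and peripheral tissues such as lung run this loop with strong changes of transcript level over a few hours.

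Between 2 and 6 h few probe sets passed the test over all exposures. With limma on all 19638 probe sets tested, 3 had an adjusted p under 0.05 (0.0153%), 1 higher (0.00509%) and 2 lower (0.0102%) at 6 h, while 2118 (10.8%) had an unadjusted p under 0.05. All 3 arrays at 6 h lay above all 3 at 2 h for 7.93% of probe sets and below them for 8.15% (9% and 9.3% without the doubtful array). These shares were 6.29% and 6.4% on type A and 9.6% and 9.93% on type B. Leaving out 1 condition at a time gave 1 to 7 calls: 1 without 300 µg/l at 2 h, sham at 6 h, 600 µg/l at 6 h, or either smoke concentration at 20 h, 6 without 300 µg/l at 6 h and 7 without 600 µg/l at 2 h. Without both type B arrays of the pair at 2 h the count was 0. The median difference over all probe sets was -0.003.

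The 1 named gene that passed was Maob, monoamine oxidase B, a mitochondrial enzyme that oxidises amines. Its signal was 1298 in sham, 939 at 300 µg/l and 978 at 600 µg/l at 2 h, and 2042, 1811 and 1852 in the same order at 6 h. Every 6 h array was above every 2 h array, and the 2 smoke arrays were below sham at both times. Maob rose by 0.81 (SE 0.095, n = 3 arrays against 3, limma adjusted p = 0.0444), a 1.75-fold change. The call was close to the threshold and held under 7 of 22 other settings, with adjusted p from 0.0247 to 0.187. In bulk lung RNA, fewer cells of a type and less RNA per cell cannot be told apart, here and below.

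The other 2 calls were type B probe sets that the annotation table does not list. 1383644_at read 2742 in sham, 2645 at 300 µg/l and 2628 at 600 µg/l at 2 h, and 664, 584 and 611 at 6 h. The 3 values within each time were close to each other, and the probe set fell by 2.02 (SE 0.149, limma adjusted p = 0.00186). Without the type B sham array at 2 h the change was -1.99 (adjusted p = 0.0250), and it was then the 1 call of the comparison (0.00509%). 1397610_at read 1499, 1526 and 1133 at 2 h and 516, 498 and 536 at 6 h, and fell by 1.33 (SE 0.146, limma adjusted p = 0.0375). This second call was lost without that array (adjusted p = 0.188).

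The named genes next in order of p did not pass. Among those with higher values at 6 h were Ptp4a3, a protein tyrosine phosphatase (649, 445 and 394 in sham, 300 and 600 µg/l at 2 h, 869, 740 and 708 at 6 h, difference 0.61, limma adjusted p = 0.0988), and Lmo2, a transcription cofactor of blood and endothelial cells (1992, 2010 and 3075 against 4221, 5705 and 4574). Bank1, a B cell signalling scaffold, read 981, 883 and 1135 at 2 h and 2174, 1804 and 1702 at 6 h, and Arhgef26, a guanine nucleotide exchange factor, read 1432, 1395 and 1276 against 2739, 2033 and 2018. In these 4 genes no 6 h value lay below a 2 h value. A second type B probe set of Arhgef26 differed by 0.38 where the brighter one differed by 0.69. Lmo2, Bank1 and Arhgef26 are on type B, and their adjusted p without the type B sham array at 2 h was 0.335, 0.335 and 0.345.

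On the lower side, Npr3, the natriuretic peptide clearance receptor, was near the dim end of type A, with 188, 298 and 248 at 2 h and 42.0, 15.9 and 19.5 at 6 h (difference -1.96, SE 0.256, limma adjusted p = 0.0688). Ctdsp2, a small phosphatase of RNA polymerase II, read 3543, 3663 and 3779 at 2 h and 2783, 2590 and 2602 at 6 h (-0.46, SE 0.074, limma adjusted p = 0.106). The groups did not overlap for either gene. Tmem26, which encodes a transmembrane protein, read 1038, 1103 and 876 against 290, 491 and 554 on type B, and Ms4a7, a macrophage membrane protein gene, 607, 515 and 474 against 52.5, 142 and 69.2. Neither passed with or without the doubtful array (limma adjusted p = 0.106 and 0.106 with it, 0.335 and 0.446 without it). All 6 h values of Ms4a7 were under the type B floor of 238.7, so the size of its change is uncertain.

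**Figure D1:**
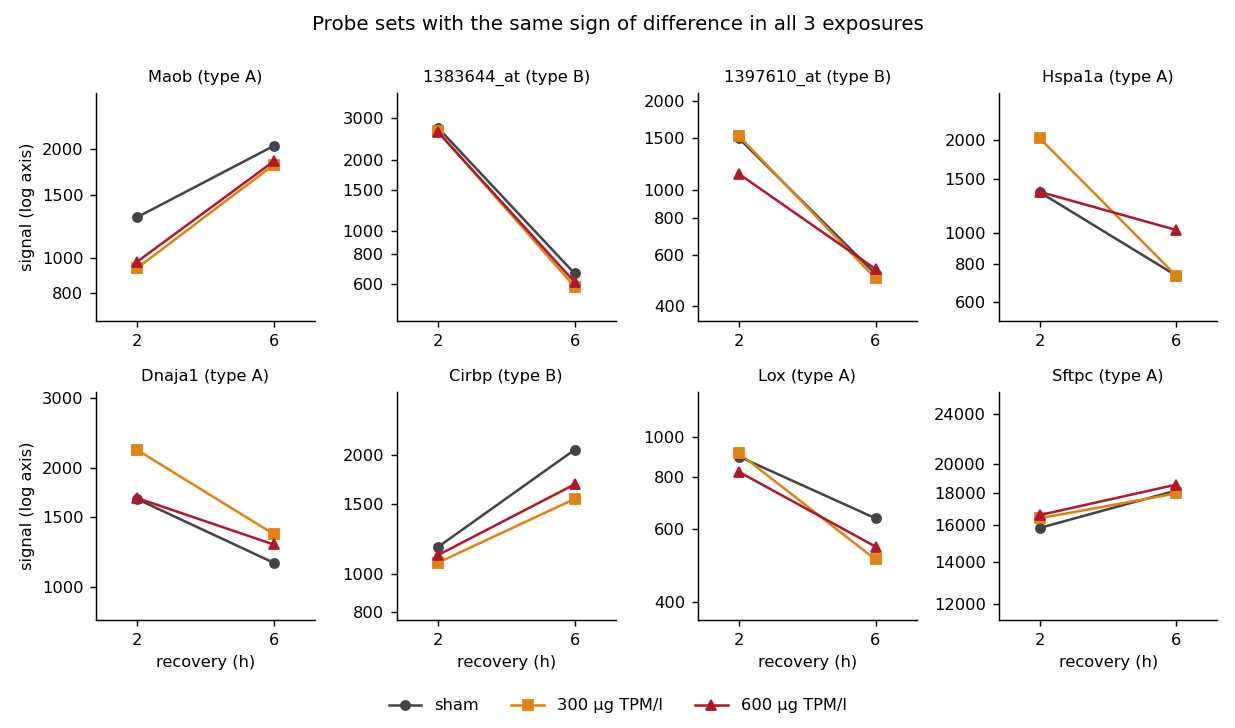
Signal on a log axis at 2 and 6 h of recovery for 8 probe sets, with 1 point per array and a line per exposure. Maob and the unlisted probe sets 1383644_at and 1397610_at passed the test; the other 5 probe sets have the same sign in all 3 exposures without passing it, and the 18566 of Sftpc at 600 µg/l at 6 h is the highest point shown.

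Within the smoke-exposed rats alone, AhR targets made up 3 of the calls. Over the 2 smoke concentrations together, 6 probe sets passed (0.0306% of those tested), 2 higher (0.0102%) and 4 lower (0.0204%) at 6 h, with 1422 (7.24%) at an unadjusted p under 0.05. The number was also 6 without the doubtful array and 6 without both arrays of the pair, 1 without the 300 µg/l arrays at 2 h and 3 without the 600 µg/l arrays at 2 h. Of the 4 that fell, 3 belong to the AhR list, which has 6 measured members. The spread in this test comes from differences between the 300 and 600 µg/l arrays within a time. The 2 concentrations thus stand in for replicates, and the SE and p-values measure no spread between arrays of the same condition.

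Cyp1a1, the P450 enzyme most tightly under AhR control, read 8795 at 300 µg/l and 9463 at 600 µg/l at 2 h and 2789 and 2122 at 6 h. The sham arrays read 154 and 111 at these times. Both smoke courses went down while remaining far above sham at 6 h, and the sham values were below the type A floor of 183.8 at both times. The smoke course of Cyp1a1 fell by 1.89 (SE 0.133, n = 2 arrays against 2, limma adjusted p = 0.00517), a 3.69-fold change.

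Cyp1b1, a P450 that activates polycyclic hydrocarbons and steroids, read 2008 and 2725 in smoke at 2 h and 571 and 757 at 6 h, with 474 and 408 in sham. At 6 h its smoke signals were thus within 1 log2 unit of sham. It fell by 1.76 in the smoke course (SE 0.166, limma adjusted p = 0.0146). Aldh3a1, an aldehyde dehydrogenase that clears lipid-derived and smoke-derived aldehydes, read 1225 and 1747 at 2 h and 270 and 232 at 6 h in smoke, against 68.4 and 86.8 in sham. It fell by 2.33 in the smoke course (SE 0.214, limma adjusted p = 0.0146), and its sham values were again under the floor.

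Nqo1, a quinone reductase under both AhR and NRF2 control, had a smaller difference. Its smoke signals were 4750 and 5959 at 2 h and 3478 and 3557 at 6 h, its sham signals 1234 and 1394. The 2 h smoke values were the higher ones at both concentrations, and the smoke course of -0.59 did not pass. Tiparp, an AhR-induced ADP-ribosyltransferase, differed little: on type B it read 870 and 1384 in smoke at 2 h and 1267 and 1382 at 6 h, and a type A probe set read 1145 and 1115 against 1112 and 977.

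Ahrr, the AhR repressor, is on type B and was lower at 6 h in every exposure: 885 in the array labelled sham, 839 and 533 in smoke at 2 h, and 198, 244 and 248 at 6 h. It was the only list member of which the 6 h and 2 h values did not overlap, 1 of 6 where 8.15% of all probe sets had all 6 h values below. The value of the array labelled sham at 2 h was close to that of the 300 µg/l array at 2 h. The difference over all exposures was -1.49 (SE 0.226, limma adjusted p = 0.0988), -1.34 (adjusted p = 0.335) without that array and -0.90 (adjusted p = 0.789) without both arrays of the pair. Over the whole list the median difference was -0.01 in sham, -1.62 at 300 µg/l and -1.37 at 600 µg/l, beside medians of -0.010, -0.001 and 0.005 over all probe sets. On type A, 3 of the 4 list members were at least 1.5-fold lower at 6 h at both concentrations, beside 0.121% of all type A probe sets.

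The AhR with its partner ARNT binds DNA at a short core, and the 250 bases upstream of the RefSeq transcript start of 2 of these genes are shown because they hold it more than once. GCGTG was searched on both strands, is in capitals (CACGC where it is on the opposite strand), and occurs in 25.9% of the 33469 promoter entries of RefSeq for GRCr8 over the same length. A match is a description of the letters only. Ahrr lies at chr1:30821969-30822218 on the plus strand, with matches starting 142, 117 and 57 bases before the start, and Cyp1b1 at chr6:21094315-21094564 on the plus strand, with matches at 81 and 20 bases.
Ahrr: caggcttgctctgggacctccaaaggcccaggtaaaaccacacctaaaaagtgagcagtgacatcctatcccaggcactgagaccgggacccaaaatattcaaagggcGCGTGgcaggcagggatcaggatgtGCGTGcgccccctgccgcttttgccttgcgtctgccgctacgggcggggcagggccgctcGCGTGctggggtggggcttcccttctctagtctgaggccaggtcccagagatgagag
Cyp1b1: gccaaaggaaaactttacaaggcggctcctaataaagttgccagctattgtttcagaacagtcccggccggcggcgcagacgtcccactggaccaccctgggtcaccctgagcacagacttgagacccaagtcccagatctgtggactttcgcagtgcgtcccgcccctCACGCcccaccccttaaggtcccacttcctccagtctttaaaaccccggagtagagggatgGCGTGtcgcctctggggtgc
None of these matches overlaps another. Nqo1 and Tiparp each hold 1 match, at 10 and 136 bases, both on the opposite strand. Cyp1a1 and Aldh3a1 have no entry in the promoter table and were not searched.

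**Figure D2:**
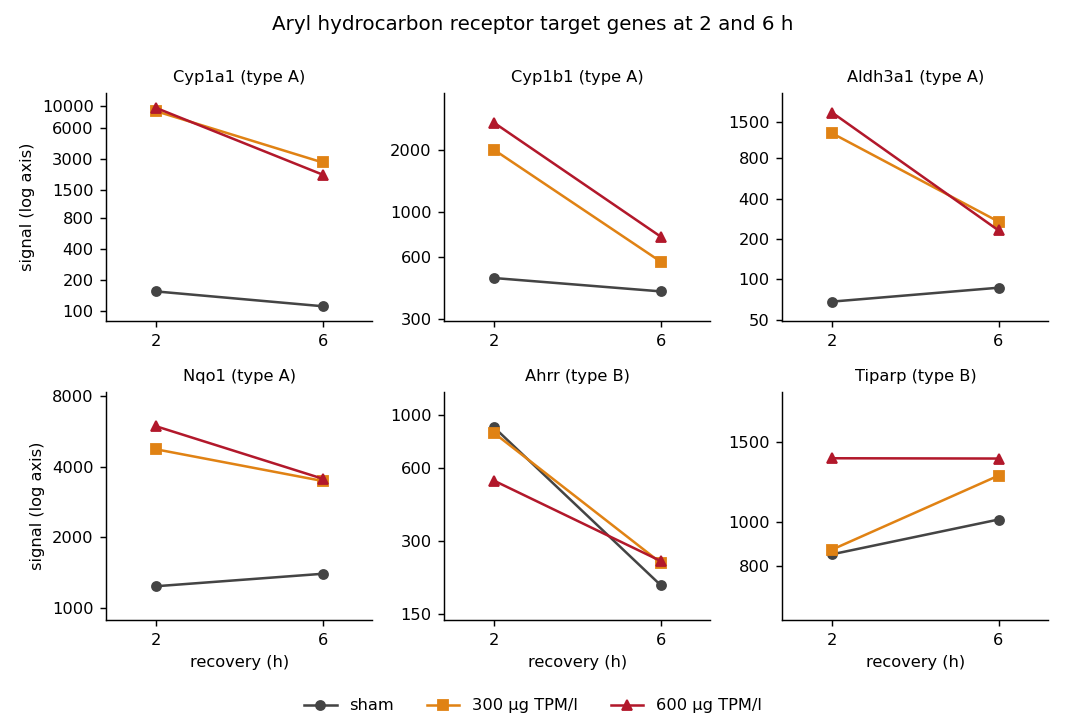
Signal on a log axis at 2 and 6 h for the 6 measured AhR targets, 1 point per array, with a line per exposure. Cyp1a1, Cyp1b1 and Aldh3a1 come down in both smoke courses (Cyp1a1 from 8795 and 9463 to 2789 and 2122) while sham stays low; Ahrr is lower at 6 h in all 3 lines.

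The 2 higher probe sets of the smoke course were Maob, which rose by 0.90 (SE 0.092, limma adjusted p = 0.0208), and a type A probe set of Kif26b, a kinesin-like protein gene. That Kif26b probe set is not the brightest of its gene and was named after its values were seen. It read 134 and 161 in smoke at 2 h and 398 and 355 at 6 h, with 323 and 358 in sham, and rose by 1.11 (SE 0.127, limma adjusted p = 0.0426). Both 2 h smoke values were under the type A floor, so the size of the change is uncertain. The remaining call of the smoke course was 1383644_at, described above.

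Genes of the NRF2 antioxidant and NADPH list, which NRF2 induces on oxidative and electrophilic stress, gave no call: none of 28 measured passed in either comparison. The median difference was 0.03 in sham, -0.03 at 300 µg/l and -0.14 at 600 µg/l. At 600 µg/l, 4 of the 25 type A members (Hmox1, Gclm, Akr1b8 and Osgin1) were at least 1.5-fold lower at 6 h, beside 1.01% of all type A probe sets. Hmox1, heme oxygenase 1, read 455.2, 762.3 and 1275.5 in sham, 300 and 600 µg/l at 2 h and 385, 635 and 589 at 6 h. Its largest step was at 600 µg/l, and the groups overlapped (difference -0.51, SE 0.16, limma adjusted p = 0.309). Gclm, the modifier subunit of glutamate-cysteine ligase, ran in opposite directions, from 289 to 458 in sham, from 545 to 350 at 300 µg/l and from 777 to 394 at 600 µg/l. The catalytic subunit gene Gclc had differences of 0.20, -0.60 and -0.47 on its brighter probe set and -0.16, -0.12 and -0.58 on the other. Nfe2l2, which encodes NRF2 itself, differed by 0.32 in sham, -0.34 at 300 µg/l and -0.43 at 600 µg/l. Osgin1, an NRF2-induced growth inhibitor gene, read 124 in sham, 442 at 300 µg/l and 682 at 600 µg/l at 2 h and 302, 372 and 400 at 6 h, so its exposures were much closer together at 6 h. Gstp1, a glutathione transferase, stood at 3999, 5785 and 6320 at 2 h and 4125, 6436 and 6233 at 6 h, that is, with a smoke difference of similar size at both times.

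In several clock genes the sham and 600 µg/l courses ran in opposite directions, and the 300 µg/l course went either way. Dbp, the D-box binding activator driven directly by BMAL1, read 189 in sham at 2 h and 1303 at 6 h, 415 and 568 at 300 µg/l, and 446 and 203 at 600 µg/l. The sham difference of 2.50 was the largest on type A among list members, with 0.41 at 300 µg/l and -0.97 at 600 µg/l. Per2, a core repressor, read 317 and 732 in sham, 925 and 606 at 300 µg/l, and 1076 and 672 at 600 µg/l. It was below both smoke arrays in sham at 2 h and above both at 6 h. Nr1d1, the heme-binding repressor REV-ERB alpha, went from 778 to 1522 in sham, from 649 to 496 at 300 µg/l and from 526 to 149 at 600 µg/l. Its paralogue Nr1d2 followed the same order on 2 probe sets, with differences of 0.69, -0.42 and -1.28 on the brighter and 0.59, -0.57 and -1.10 on the other.

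Cry2, a further repressor, differed by 0.54 in sham, -0.28 at 300 µg/l and -0.41 at 600 µg/l, and Hlf, a relative of Dbp, by 0.49, -0.25 and -0.20. In Per1 the 300 µg/l course rose more than the sham course, with 0.56, 0.88 and -0.17. On type B, Tef, another relative of Dbp, went from 3538 to 5699 in sham, the first value from the doubtful array, from 3391 to 3361 at 300 µg/l and from 3776 to 3059 at 600 µg/l. Per3 differed by 0.77, 0.41 and -1.19. Bhlhe40 and Bhlhe41, repressors that compete for E-boxes, differed by 0.36, 0.05 and 0.10 and by 0.23, 0.06 and 0.08.

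Most activators and Nfil3 had the opposite order. Bmal1, the central activator, read 237 in sham, 228 at 300 µg/l and 172 at 600 µg/l at 2 h and 132, 175 and 231 at 6 h. The 3 exposures thus changed places between the times, with differences of -0.65, -0.30 and 0.34. The Bmal1 values of 172, 132 and 175 were under the type A floor of 183.8, so the sizes of these differences are uncertain. Clock differed by -0.46, -0.20 and 0.06, and a second probe set by -0.51, -0.08 and 0.12. Rora, the receptor that activates Bmal1, did not follow it on its brighter type B probe set, with -0.02, -0.25 and -0.32. A dimmer type B probe set of Rora differed by 0.284, 0.141 and 1.655, the last from a 2 h value of 58.6. Npas2, on type B, read 944, 833 and 467 at 2 h and 415, 441 and 588 at 6 h, and Nfil3, a repressor at D-boxes, 232, 220 and 195 against 140, 191 and 264. The 140 of Nfil3 in sham at 6 h was also under the type A floor. Cry1, a late repressor on type B, was lower at 6 h in all exposures (1307, 1304 and 1260 against 673, 847 and 1027, difference -0.59, SE 0.16, limma adjusted p = 0.264, and 0.570 without the doubtful array), least so at 600 µg/l.

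By counts, none of 4 clock activators, 11 clock repressors and 8 clock output genes passed in any of the comparisons. The sham difference exceeded both smoke differences in 6 of 7 clock repressors on type A, where 34.3% of all type A probe sets had this order, and in 3 of 6 clock output genes. Immediate early genes, described below, had it in 16 of 23. The median difference of the 11 repressors was 0.54 in sham, -0.28 at 300 µg/l and -0.28 at 600 µg/l, and that of the 4 activators -0.55, -0.28 and 0.18. The fitted difference over all exposures says little for such genes, since opposite courses cancel in it: it was -0.04 for Per2 (SE 0.275) and 0.65 for Dbp (SE 0.62). The number of arrays behind each line is 1 at each time, so the phase of any exposure was not tested.

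E-boxes are the sites of BMAL1 dimers, ROR elements those at which REV-ERB proteins repress, and D-boxes those of DBP, TEF, HLF and NFIL3. The 250 bases upstream of Per2 and Bmal1 are shown because these genes stand for the opposite sides of the loop. Both strands were searched for CACGTG and its variant CACGTT, which share 5 letters, for TAGGTCA (ROR element) and for TTATGTAA (D-box), found in 5.59%, 4.07%, 2.26% and 0.828% of the promoter entries. In capitals are CACGTT and TTATGTAA in Per2 (chr9:99496994-99497243, minus strand, starting 62 and 192 bases before the start) and TAGGTCA in Bmal1 (chr1:176766078-176766327, plus strand, 16 bases before the start).
Per2: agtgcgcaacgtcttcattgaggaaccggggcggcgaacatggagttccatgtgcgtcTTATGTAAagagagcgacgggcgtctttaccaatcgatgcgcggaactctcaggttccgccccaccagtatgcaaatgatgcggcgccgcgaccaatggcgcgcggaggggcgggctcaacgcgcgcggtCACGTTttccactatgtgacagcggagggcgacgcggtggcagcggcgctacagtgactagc
Bmal1: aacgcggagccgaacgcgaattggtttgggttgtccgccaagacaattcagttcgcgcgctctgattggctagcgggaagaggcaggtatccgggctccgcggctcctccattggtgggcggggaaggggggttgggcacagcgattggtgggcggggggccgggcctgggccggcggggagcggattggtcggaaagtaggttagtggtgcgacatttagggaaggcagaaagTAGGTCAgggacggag
Elsewhere, CACGTG was found in Tef, Bhlhe40, Bhlhe41 and 1 of 2 entries of Nr1d1, and CACGTT in Cry2 and the other Nr1d1 entry. The matches printed do not overlap each other.

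**Figure D3:**
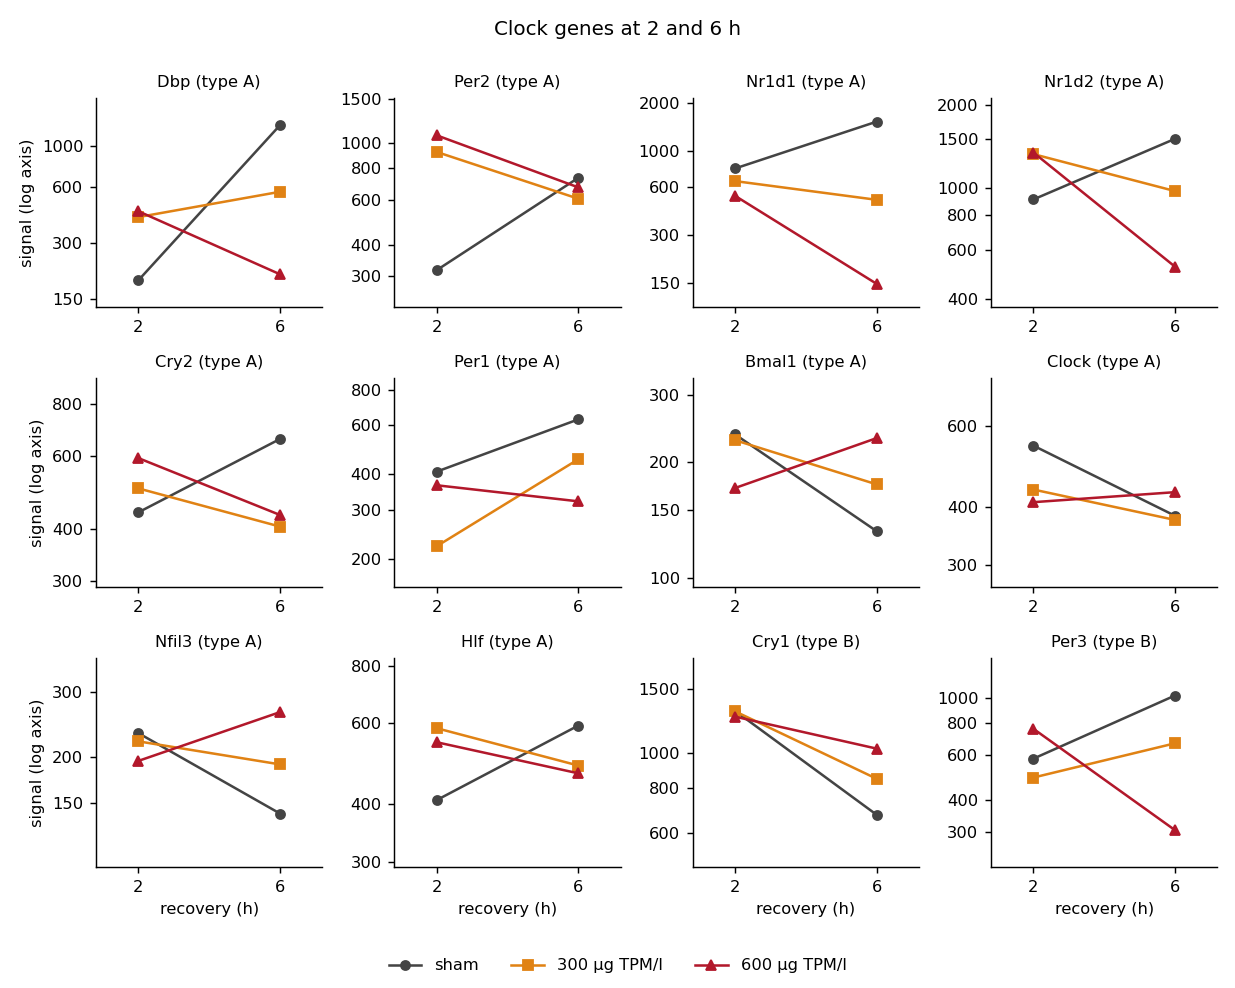
Signal on a log axis at 2 and 6 h for 12 clock genes, 1 point per array and a line per exposure. In Dbp, Per2, Nr1d1, Nr1d2, Cry2 and Hlf the sham line goes up (Dbp from 189 to 1303) and the 600 µg/l line down; in Bmal1, Clock and Nfil3 the sham line goes down and the 600 µg/l line up.

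The difference between the smoke and the sham course was tested for every probe set, and 0 of 19638 passed in limma (smallest adjusted p = 0.338), with 1231 (6.27%) at an unadjusted p under 0.05. The count was 1 without the 300 µg/l arrays at 2 h. This test holds no measured spread of sham arrays. The 5 genes with the smallest p on the brightest probe set of their gene were Anp32a, a nuclear phosphoprotein gene, G0s2, an inhibitor of triglyceride lipase, Per2, Aldh3a1 and Cyp1a1. Anp32a read 661 and 338 in sham, 526 and 833 at 300 µg/l, and 444 and 801 at 600 µg/l. Sham was the highest of the 3 exposures at 2 h and the lowest at 6 h, a difference of courses of 1.57 (SE 0.211). G0s2 had the same order, with 1243 and 791 in sham, 870 and 1373 at 300 µg/l, and 736 and 1534 at 600 µg/l (1.44, SE 0.198). For Per2 the difference of courses was -1.70 (SE 0.233), for Aldh3a1 -2.54 (SE 0.370) and for Cyp1a1 -1.54 (SE 0.231), all with limma adjusted p of 0.338 to 0.350.

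On type A the sham and smoke courses were nearly unrelated across probe sets. The Pearson correlation of the differences between 6 and 2 h was 0.103 between sham and 300 µg/l, 0.016 between sham and 600 µg/l and 0.178 between the 2 smoke concentrations, over 9901 probe sets, which are not independent replicates. At least 1.5-fold higher at 6 h were 1.38% of type A probe sets in sham, 1.18% at 300 µg/l and 1.18% at 600 µg/l, and at least 1.5-fold lower were 1.82%, 1.29% and 1.01%. On type B, the corresponding correlation of 0.360 between sham and 300 µg/l includes the 2 arrays at 2 h described above, and it was 0.058 between the 2 smoke concentrations.

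**Figure D4:**
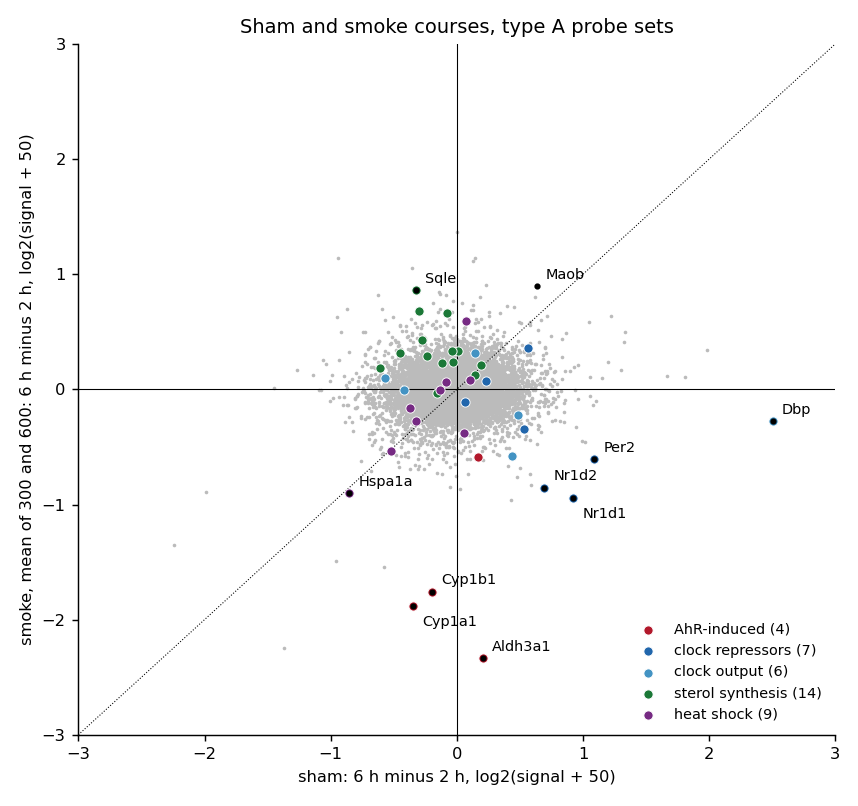
Each grey point is 1 of 9901 type A probe sets, with its sham difference between 6 and 2 h on the x axis and the mean of the 2 smoke differences on the y axis, both in log2(signal + 50); the dotted line marks equal courses, and colours mark members of 5 gene lists. Maob and Hspa1a lie near the dotted line, Aldh3a1, Cyp1a1 and Cyp1b1 far down near a sham difference of 0, and Dbp, Per2, Nr1d1 and Nr1d2 to the right and below.

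Heat shock genes encode chaperones that are induced by heat and by misfolded protein. None of 10 measured passed. All 6 h values were below all 2 h values in 3 of them and above in 1, beside 8.15% and 7.93% of all probe sets. Hspa1a, an inducible HSP70, read 1359, 2028 and 1363 in sham, 300 and 600 µg/l at 2 h and 731, 730 and 1026 at 6 h (difference -0.89, SE 0.15, limma adjusted p = 0.106). Its co-chaperone Dnaja1 read 1667, 2221 and 1677 against 1150, 1359 and 1279, and a second probe set differed by -0.42 where this one differed by -0.53. Bag3, a co-chaperone of selective autophagy, read 1253, 1418 and 1258 against 957, 1201 and 1174. Hspb1, a small heat shock protein gene, went the other way, from 3153, 3132 and 2630 to 3321, 3947 and 4827. Cirbp, an RNA-binding protein gene induced by mild cold, was higher at 6 h on type B, with 1168, 1066 and 1114 at 2 h and 2060, 1547 and 1684 at 6 h (0.63, SE 0.12, limma adjusted p = 0.143, and 0.43 without the doubtful array). Its 2 other probe sets differed by 0.97 on type B and 0.24 on type A, and Rbm3, the other cold-inducible gene, by 0.04.

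Immediate early genes respond within minutes to growth factors, stress and handling. None of 26 measured passed, 5 had all 6 h values below all 2 h values and 0 above, beside 8.15% and 7.93% of all probe sets, and the median difference was 0.05 in sham, -0.20 at 300 µg/l and -0.28 at 600 µg/l. The 5 were Maff, Klf10, Dusp1, Nr4a3 and Gadd45b. Maff, a small MAF partner of NRF2, read 504, 464 and 765 at 2 h and 313, 250 and 395 at 6 h on type B, (-0.75, and -0.77 without the doubtful array), and Dusp1, a MAP kinase phosphatase, 2155, 2154 and 2459 against 1513, 1909 and 1636, with a second probe set at -0.12. Egr1, a zinc finger transcription factor, differed in sign between exposures, from 581 to 1208 in sham, from 1041 to 958 at 300 µg/l and from 1133 to 638 at 600 µg/l. Ier3, an early stress response gene, differed by 0.20, -0.54 and -0.46, and Klf4, an epithelial and endothelial transcription factor, by 0.11, -0.34 and -0.73. Fos, Junb and Atf3 differed by 0.32, -0.12 and 0.11, by 0.01, -0.24 and -0.39, and by -0.09, -0.55 and -0.43.

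Among 17 genes that glucocorticoids induce, none passed, and the median difference was 0.09 in sham, 0.07 at 300 µg/l and -0.38 at 600 µg/l. Fkbp5, a cochaperone of the glucocorticoid receptor, read 619, 594 and 914 at 2 h and 401, 324 and 425 at 6 h on type B, (-0.79, and -0.69 without the doubtful array), and 350, 414 and 574 against 309, 263 and 286 on type A. Both probe sets had their highest value at 600 µg/l at 2 h. Mt2A, a metallothionein that binds zinc and cadmium, read 579, 1416 and 2243 at 2 h and 436, 964 and 1219 at 6 h, with smoke above sham at both times. Sult1a1, a phenol sulfotransferase, went from 4028 to 4294 in sham, from 5141 to 3122 at 300 µg/l and from 4567 to 2683 at 600 µg/l, and Glul, glutamine synthetase, differed by 0.03, -0.40 and -0.46. Tsc22d3 (GILZ) differed by 0.10, -0.14 and -0.53 and the kinase gene Sgk1 by -0.01, 0.14 and -0.09. Of 9 genes of fasting and fatty acid oxidation none passed, and Pdk4, the kinase that shuts off pyruvate dehydrogenase, read 402, 394 and 345 at 2 h and 247, 325 and 247 at 6 h on type B.

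Inflammatory genes did not pass either: 0 of 18 chemokines and cytokines, 0 of 9 acute inflammatory effectors and 0 of 3 neutrophil markers. Cxcl1 and Cxcl2, ligands of the neutrophil receptor CXCR2, were above sham in smoke at 2 h (521, 1342 and 1401; 84, 232 and 210) and at 300 µg/l came down by 6 h to 718 and 121, while at 600 µg/l they read 1348 and 233. Cxcl1 differed by -0.35, -0.86 and -0.05. Il1b, interleukin 1 beta, read 369, 458 and 558 at 2 h and 256, 577 and 606 at 6 h. Il33, an epithelial alarmin, had all 6 h values above all 2 h values on its brighter probe set (3316, 2704 and 2614 against 3636, 3318 and 3492), and the other probe set had differences of -0.12, -0.04 and -0.06.

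The neutrophil calprotectin genes S100a8 and S100a9 were highest at 600 µg/l at 6 h. S100a9 read 968, 2300 and 2976 at 2 h and 695, 2234 and 6636 at 6 h, and S100a8 298, 378 and 375 against 194, 308 and 908. Among the 2 and 6 h arrays, a single array carried the high value in both genes. At 20 h, S100a9 read 1033, 2752 and 5161 in sham, 300 and 600 µg/l, and S100a8 614, 550 and 638. Csf3r, the granulocyte colony-stimulating factor receptor gene, read 706 at 600 µg/l at 6 h on type B. The other 2 and 6 h arrays had 398 to 558, and the 300 µg/l array at 20 h had 808. Cxcr2, Mmp8 and Camp were under the floor of their array type. The macrophage gene Mmp12, an elastase, read 401 and 393 in smoke at 2 h and 261 and 797 at 6 h. Lcn2 and C3, mucosal defence genes, differed by -0.26 to 0.26 and by 0.00 to 0.06. Of 18 macrophage and lysosome genes none passed, and Lgals3 (galectin 3) and Ctsd (cathepsin D) differed by 0.24 and 0.15 over all exposures.

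Sterol synthesis enzymes, which SREBP2 induces when membrane cholesterol is low, were higher at 6 h in smoke by value. None of 17 passed. The median difference was -0.08 in sham, 0.24 at 300 µg/l and 0.37 at 600 µg/l. Squalene epoxidase (Sqle) went from 282 to 215 in sham, from 175 to 329 at 300 µg/l and from 276 to 590 at 600 µg/l. Farnesyl diphosphate synthase (Fdps) went from 960 to 906, from 746 to 1150 and from 962 to 1626, and Acat2, the cytosolic thiolase of the first step, from 273 to 212, from 124 to 217 and from 190 to 352. These 3 of 14 type A members were at least 1.5-fold higher at both concentrations, beside 0.232% of all type A probe sets. In none of the 14 was the sham difference above both smoke differences, an order that 34.3% of all type A probe sets had. Among 9 fatty acid synthesis genes, Scd, the stearoyl-CoA desaturase, read 619, 690 and 571 at 2 h and 690, 1092 and 1915 at 6 h (difference 0.81, SE 0.21, limma adjusted p = 0.255), and the desaturase gene Fads1 1242, 1052 and 1155 against 1387, 1430 and 1758. The unfolded protein list of 17 genes, which holds chaperones of the endoplasmic reticulum and stress transcription factors, had medians of -0.19, 0.05 and 0.31. Hyou1, one of the chaperones, read 502, 518 and 366 at 2 h and 358, 554 and 744 at 6 h. Ddit3 (CHOP), a stress-induced transcription factor, was lower in all exposures, with 365, 423 and 440 against 297, 308 and 313.

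Alveolar type 2 genes had all 6 h values above all 2 h values in 7 of 11 measured members and below in 0, beside 7.93% and 8.15% of all probe sets, and none passed. The median difference was 0.14, and 0.04 after quantile normalization. Sftpc read 15855, 16421 and 16616 at 2 h and 18173, 17983 and 18566 at 6 h (0.16, SE 0.04, limma adjusted p = 0.256). Over 22 other settings its difference ranged from 0.045 to 0.176. Sftpb, surfactant protein B, read 10151, 10826 and 11238 against 12962, 12318 and 11270 on type A, but a type B probe set differed by 0.41, -0.17 and -0.03. Nkx2-1, the lung epithelial transcription factor, read 2152, 2203 and 2341 against 2792, 2458 and 2505. Etv5, a factor that maintains type 2 cells, read 1128, 991 and 1005 against 1827, 1454 and 1139 on its brighter type B probe set, and its other probe set differed by -0.09. The summed signal of the 11 genes was 85096 to 88879 at 2 h and 93839 to 97723 at 6 h. These sums are of the signals as deposited and rest mostly on the brightest genes. They were not taken after quantile normalization.

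Among other lung cell types, 1 of 8 alveolar type 1 genes had all 6 h values above all 2 h values and 0 below. Over all probe sets these shares were 7.93% and 8.15%. Of the type 1 genes, the water channel gene Aqp5 read 2575, 2045 and 2028 at 2 h and 3502, 2866 and 2270 at 6 h. Emp2, a tetraspan membrane protein gene, had all 6 h values higher on type B but not on type A. Of 8 ciliated cell genes, 3 had all 6 h values above all 2 h values (Mlf1, Tekt2 and Ccdc39). They were among the 5 on type B, where 9.6% of all probe sets had this order. Mlf1 differed by the most (0.41), and the median of the 8 was 0.20. Of 9 club and secretory airway genes none did: Cyp2a3, a P450 of airway epithelium, went from 455 to 1557 in sham, from 266 to 346 at 300 µg/l and from 446 to 414 at 600 µg/l, and Scgb3a1, a secretoglobin gene, was lower in every exposure on type B (5941, 6048 and 7570 against 3709, 2693 and 6030). Of 11 endothelial genes 1 had all 6 h values above, Eng, beside 7.93% of all probe sets; Cldn5, the claudin of endothelial tight junctions, differed by 0.02, -0.52 and -0.39.

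No lymphocyte gene passed. All 6 h values lay above all 2 h values in 3 of 13 T cell genes (Cd3e, Cd8a and Zap70), all among the 6 on type B. Of 8 B and plasma cell genes 2 lay above (Blnk, Ms4a1) and 1 below (Cd22), all among the 6 on type B. Over all type B probe sets these shares were 9.6% above and 9.93% below. Cd8a read 177, 212 and 155 at 2 h and 401, 276 and 235 at 6 h on its chosen probe set, while another type B probe set differed by -1.68, -0.39 and 0.57. The 2 h values of the chosen probe set were under the type B floor of 238.7. Gzmb, a cytotoxic granule protease gene, differed by 0.70 on type B, 0.45 without the doubtful array, 0.006 without both arrays of the pair, and by -0.25 on type A. Among 8 genes of MHC class II antigen presentation, RT1-Ba had the largest difference of any list member, -2.48 (SE 0.667, limma adjusted p = 0.261, and 0.582 without the doubtful array). On type B it read 5993, 6067 and 8902 in sham, 300 and 600 µg/l at 2 h and 330, 4895 and 964 at 6 h, and a second type B probe set had the same order (233, 4819 and 442 at 6 h). The 2 type A probe sets of RT1-Ba had smaller differences, -0.64, -0.39 and -0.08 on one and -0.10, 0.71 and 0.12 on the other. One type A probe set of RT1-Bb read 1320, 2361 and 3130 at 2 h and 869, 449 and 1764 at 6 h where the brighter one read 1872, 2472 and 2406 at 6 h.

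In the matrix list Lox, the lysyl oxidase that cross-links collagen and elastin, was lower at 6 h on both probe sets: 896, 913 and 823 against 637, 507 and 545 on the brighter, with a difference of -0.60 (SE 0.10, limma adjusted p = 0.106), and -0.44 on the other. Elastin (Eln) read 1021, 612 and 528 at 2 h and 533, 569 and 605 at 6 h, so the sham array at 2 h alone was high on type A, and a type B probe set differed by -1.22, -0.61 and 1.32. Fbn1 and Col1a1 were higher at 6 h in every exposure on their brighter probe sets (0.38 and 0.35), and their second probe sets differed by -0.16 and 0.17. None of 20 matrix genes passed. Nor did any of 10 smooth muscle, 18 cell cycle, 13 p53 and DNA damage or 22 interferon-responsive genes, with medians of 0.08, 0.05, 0.03 and 0.03 over all exposures. In the cell cycle list no member had non-overlapping groups, where 7.93% of all probe sets lay above and 8.15% below.

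Genes of tissues that a lung dissection can include were mostly dim. Of the cardiac list 5 of 12 genes passed the floor, of skeletal muscle 3 of 9 and of cartilage 0 of 5. Myh1, a skeletal muscle myosin gene, was not dim, with 1052.4 to 1364.6 at 2 h and 1092.2 to 1369.6 at 6 h. Among the cardiac genes, Myh7 and Nppa stayed at or below 34.5 and 47.4. Myh6 read 168.6 to 263.2 at 2 h and 128.4 to 271.2 at 6 h, and Myl7 187.3 to 392.3 and 131.2 to 346.8. Actc1, cardiac actin, read 1238 on the type B sham array at 6 h against 656 to 755 on the other 5, and Mybpc3 29.8 on the type A sham array at 2 h against 167 to 288. Haemoglobin (Hbb) read 14806 to 16745 at 2 h and 14846 to 17640 at 6 h. The part of these values in the differences above was not tested.

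**Figure D5:**
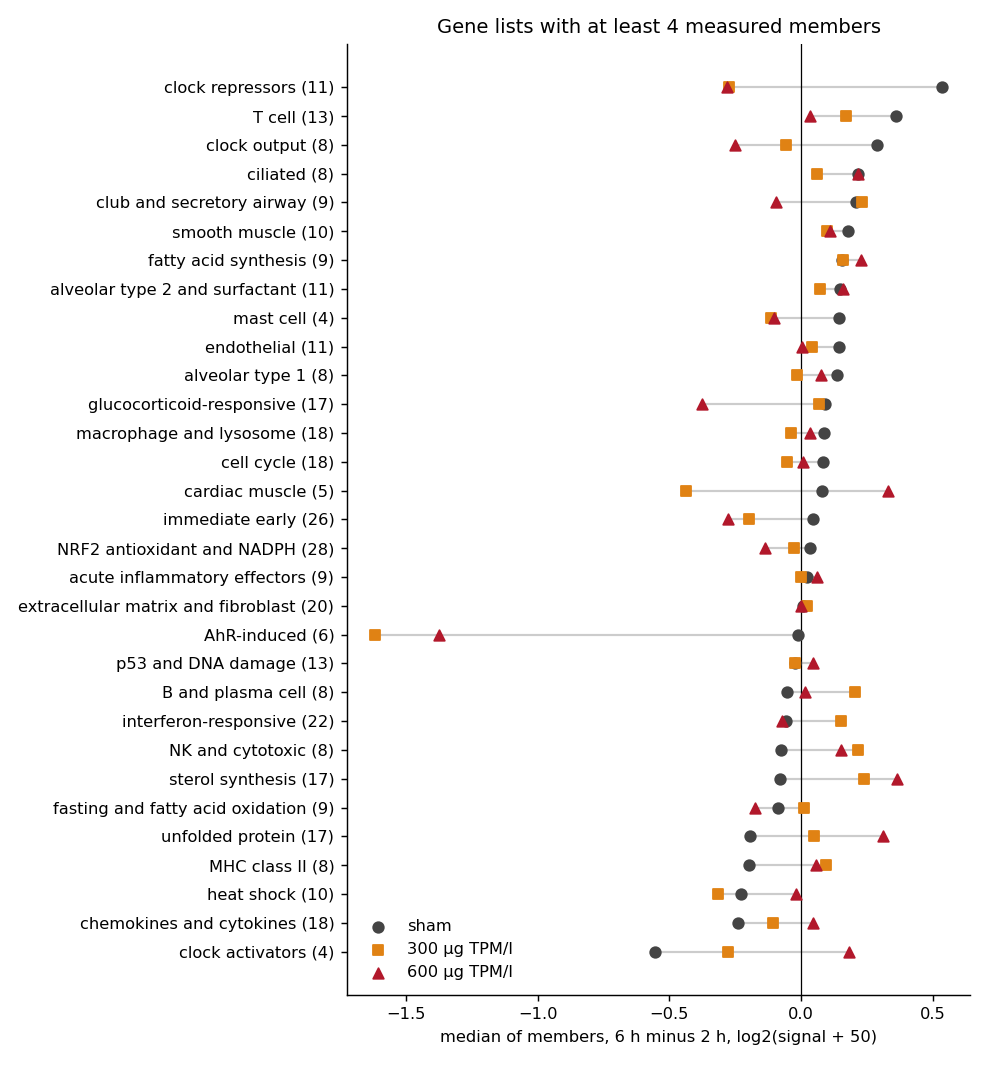
Median difference between 6 and 2 h, in log2(signal + 50), over the measured members (number in brackets) of each gene list with at least 4, with 1 symbol per exposure and lists ordered by the sham median. The AhR list lies far to the left at both smoke concentrations (-1.62 and -1.37) and near 0 in sham, while clock repressors (0.54 in sham) and clock activators (-0.55 in sham) mark the ends of the sham order.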

How the data were processed

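Lung total RNA was labelled as biotinylated cRNA and hybridised to 2 Affymetrix array types. The deposited intensity values are MAS5 signals on a linear scale, per the submitters' processing notes, with no version given, and the scaling target was read from the values. From these, log2(signal + 50) was computed for probe sets reaching their type's 40th percentile in at least 3 of 9 arrays, leaving out 57 control probe sets per type and counting 100 present on both types once, on A.

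limma 3.58.1 (R 4.3.3), with eBayes allowing for an intensity trend, was fitted per type to all 9 arrays, with exposure and time as additive terms (4 residual degrees of freedom), or smoke, time and their interaction (3). Tests were two-sided, with Benjamini-Hochberg adjustment over both types and a threshold of 0.05, and the procedure was tested on simulated data. A gene was represented by its brightest probe set. Genes were named from the GEO platform annotation, with symbols updated to those of RefSeq where the Entrez gene identifier was found there. Named were genes past the threshold with 1 sign in all exposures, filled up to 5 per direction by p, up to 4 per list by adjusted p, and preset clock, stress and AhR genes. Further members were picked from the lists after their values were seen. The members and lists were chosen with earlier results of these data known. Figures were drawn with matplotlib 3.10.9 in Python 3.11.15. Of the smoke samples, 4, all at 20 h, carry a sham entry in 1 label field. They enter the spread and, where an array is left out, also the estimate.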

Additional observations from a re-analysis of the deposited data

How the results depend on the processing

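The count of 3 calls at 6 h against 2 h was 1 with median scaling, without the expression filter, without the intensity trend and without the type B sham array at 2 h, 5 with trend and robust estimation, 6 with a pseudocount of 200, and 0 without both type B arrays at 2 h that went together, an alternative chosen after seeing the data. Leaving out 1 condition at a time gave 1 to 7. The 6 calls of the smoke course became 0 without the filter, 2 without the trend, 10 with adjustment within each array type, and 1 to 6 with 1 condition left out. The difference of courses gave 0 calls, or 1 without 300 µg/l at 2 h (range 0 to 1). Under quantile normalization Cd74 turned to -0.007 and Lyz2 to -0.015. Of 3453 comparisons of fitted gene values, 3403 kept direction and side of the threshold. The causes were not tested. Arrays were paired by exposure as a term of the fit, and without that term the count was 4. The labels give no replicate numbers to pair by. Leaving out a sham condition at 2 or 6 h leaves no difference of courses to estimate. Low signals limit what can be read for Npr3, for the 2 h smoke values of Kif26b and for Cyp1a1 and Aldh3a1 in sham. The same holds for Bmal1 and Nfil3, for Ms4a7 at 6 h and for Cd8a at 2 h.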
